A study of Mus musculus with 8 samples.

Results

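Surface proteins that serve as activation markers of mouse T cells were followed at the transcript level in CD4+ T cells of the spleen, the T cell class that helps other immune cells and recognises antigen on MHC class II. The set was a list of names: Cd69, Cd44, Tfrc, Ly6a, Cd24a and Cd200, 6 of the 54532 genes listed, and all 6 were counted in every library. The names were chosen by their role on the T cell surface with the fold changes of the treatment contrast already known, so counts and fold changes of that contrast are given here as a description, with no test on the 6 genes. The cells were wild type (WT), and every library was bulk messenger RNA. One group of 4 libraries came from cells given vehicle, which the file headers call DMSO, and the other group of 4 came from cells given dimethyl succinate, a cell-permeable ester of the tricarboxylic acid cycle intermediate succinate, for 3 days. Strain, age, sex, the way the cells were isolated and whether they were stimulated in culture are not given in the sources used here. Nothing states that the libraries came from separate mice or cultures, so the spread between them may be technical.

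T cells that meet antigen change their surface in a set order. CD69 appears first and holds the cell in the lymphoid organ by pulling the sphingosine 1-phosphate receptor S1PR1 off the membrane. The transferrin receptor (Tfrc, also CD71) follows as iron demand grows with division, CD44, the receptor for hyaluronan, stays high on antigen-experienced and memory cells, and Ly6a (Sca-1), a small protein held by a lipid anchor, is raised by activation and by interferons. CD24, a heavily glycosylated lipid-anchored protein, and CD200, a ligand that restrains myeloid cells through the receptor CD200R1, are further surface proteins of activated T cells.

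A pair of the 6 transcripts carries sequence that bears on how their counts can be read. Tfrc messenger RNA is stabilised when iron is low, by iron regulatory proteins that bind hairpins in its 3′ untranslated region. A search of GENCODE M21 transcripts for a 27-base hairpin, with a lower stem of 5 bases (at most 1 mismatch), an unpaired C, an upper stem of 5 paired bases and the 6-base loop CAGTGN whose last base is not G, found 4 in Tfrc, printed with the loop in capitals. They start at bases 887, 1266, 1331 and 1378 counted from the first base of the stop codon. Hairpins that depart from this pattern were not counted, so these 4 may not be all that Tfrc carries.
Tfrc hairpin at 887: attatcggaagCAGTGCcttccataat
Tfrc hairpin at 1266: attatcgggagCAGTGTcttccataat
Tfrc hairpin at 1331: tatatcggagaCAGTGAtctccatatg
Tfrc hairpin at 1378: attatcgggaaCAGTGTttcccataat
Such a hairpin was found in the 3′ untranslated region of 7 of 21707 protein-coding genes (0.0322%) and in the 5′ untranslated region of 6 of 20916 (0.0287%). The latter include the ferritin chains Fth1 and Ftl1, whose translation the same proteins block, shown for comparison.
Fth1 hairpin: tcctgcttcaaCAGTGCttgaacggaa
Ftl1 hairpin: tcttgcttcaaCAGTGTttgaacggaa

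Ly6a belongs to a family of near copies on chromosome 15. Of its 50-base windows, 15.0% occur also in transcripts of Ly6c1 and 2.39% in those of Ly6i, and 19.0% are shared with any other gene. The longest identical coding stretch with Ly6i runs for 80 bases, from base 50 to base 129 of the 402-base coding sequence, and is printed here because a read from it names neither gene.
Ly6a and Ly6i: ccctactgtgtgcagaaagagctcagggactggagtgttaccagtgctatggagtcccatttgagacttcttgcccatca
Ly6i stood at 1.43 and 1.40 CPM (read counts scaled to a common library size) under vehicle and dimethyl succinate and Ly6c1 at 26.3 and 25.2 CPM, against a lowest Ly6a value of 345 CPM, so the Ly6a count is uncertain by the reads these genes share. For Cd24a, 2.75% of windows are shared with Gm6212, for Cd69 0.0916% with other genes, and for Cd44, Tfrc and Cd200 none. No exon base of the 6 gene models is shared with another annotated gene on either strand.

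Library totals ran from 13407295 to 16688854 counts and did not differ between groups beyond their spread (exact two-sided permutation p = 0.143, where the smallest possible is 0.0286). Vehicle replicate 4 stood apart: mitochondrial genes took 0.252% of its counts, and 1.16% to 1.48% in the other 7, and its mean correlation with the rest was 0.981 against 0.989 to 0.991. Summed over 8 T cell markers it had 2164 CPM, against up to 2761 in the other vehicle libraries and 2710 to 2821 under dimethyl succinate. The fold change of every member and the counts and medians of every gene list are therefore also given without it. In bulk samples, fewer cells of a type and less RNA per cell cannot be told apart. Across all 13981 genes tested with edgeR's quasi-likelihood method, 0.0% reached an adjusted p of 0.05. Those with an unadjusted p below 0.05 numbered 805, or 5.76%, of which 2.93% of all genes were higher and 2.83% lower. Leaving out vehicle replicate 4 gave 4.43% higher and 4.12% lower, with 7109 of 14232 genes above 0. DESeq2 called 4 genes and limma-voom 0.

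The 6 transcripts covered a wide range of abundance. FPKM divides counts by the length of all annotated exons of a gene, which can exceed that of the expressed messenger RNA. Comparisons between genes on this scale therefore depend on the annotation. For Cd69 the length is 6509 bases, from 5 transcripts of which 2 are protein-coding. On this scale the mean over all 8 libraries was 323 for Ly6a, 99.2 for Tfrc and 62.0 for Cd69. It was 58.4 for Cd200, 18.0 for Cd44 and 4.59 for Cd24a. Ly6a ranked 113th of the 13981 tested genes and Tfrc 425th, so both were among the genes of highest FPKM in these cells. Cd69 and Cd200 were the one pair of neighbours in this order whose ranges overlapped, with Cd69 the higher in 6 of 8 libraries. Every other step of the order held in all 8 libraries, the smallest being Tfrc over Cd69, at 1.51 to 1.68 times. The same lengths enter every library, so this does not bear on the order per messenger RNA molecule, which was not tested. Cd24a, at the 43.9th percentile, was the sole member below the middle of the tested genes.

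**Figure D1:**
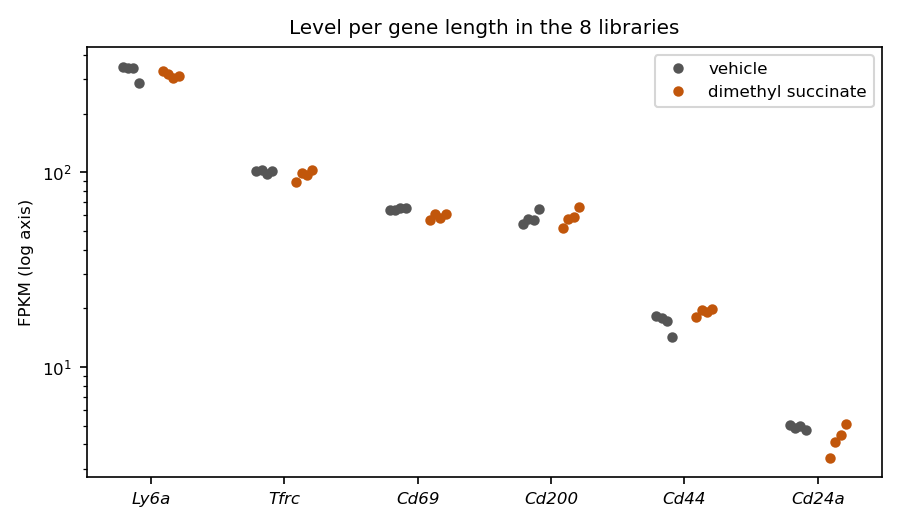
FPKM (log axis) of the 6 transcripts in the 4 vehicle (grey) and 4 dimethyl succinate (orange) libraries, 1 point per library. Ly6a lies highest at a mean of 323 FPKM and Cd24a lowest at 4.59, and the points of Cd69 and Cd200 overlap.

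Cd69, the earliest of the markers (ENSMUSG00000030156, chromosome 6, 129267325 to 129275436, minus strand, GRCm38), was lower in each dimethyl succinate library than in any vehicle library. The vehicle libraries 1 to 4 stood at 419, 421.5, 426 and 427 CPM. The dimethyl succinate libraries 1 to 4 stood at 374.5, 400, 382 and 400 CPM. The groups did not overlap, and the vehicle libraries lay closer together than the treated ones. The means were 423 ± 3.87 and 389 ± 12.7 CPM (SD, n = 4), a difference of -8.13%. The spread in vehicle, a coefficient of variation of 0.914%, was below the 1.28% that counting alone gives at this depth, and that under dimethyl succinate was 3.27%. The log2 fold change was -0.12 ± 0.056 (SE), and -0.12 ± 0.045 without vehicle replicate 4. Cd69 was the one member of the 6 with no overlap between groups. Over all tested genes 4.82% showed none, 2.32% with the treated group lower. Since this contrast was known when the genes were listed, nothing is read from that count.

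Cd44, the hyaluronan receptor (ENSMUSG00000005087, chromosome 2, 102811141 to 102901665, minus strand), had the largest positive difference of the set. The vehicle libraries 1 to 4 stood at 125, 122, 117 and 96.3 CPM. The dimethyl succinate libraries stood at 123, 134, 131 and 136 CPM. Vehicle replicate 4 was the lowest of all 8, and vehicle replicate 1 lay above dimethyl succinate replicate 1, so the groups overlapped. The means were 115 ± 12.9 and 131 ± 5.42 CPM (SD, n = 4). The log2 fold change of 0.19 ± 0.080 (SE) became 0.11 ± 0.052 without vehicle replicate 4. That library had the lowest sum of T cell markers, and the part of this in its Cd44 value was not tested. The annotation gives Cd44 9 transcripts, 8 of them protein-coding. Counts per gene do not tell these variants apart.

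Within a library, the ratio of Cd44 to Cd69 counts does not depend on how libraries are scaled. It was 0.297, 0.290, 0.275 and 0.226 in vehicle replicates 1 to 4. It was 0.329, 0.334, 0.343 and 0.340 in dimethyl succinate replicates 1 to 4. The groups did not overlap, also with vehicle replicate 4 set aside. This ratio was picked after the values were seen and rests on the same contrast. Cd69 alone already had no overlap between groups. How often ratios of other gene pairs separate the groups was not counted, so nothing is read from it. The ratio of Tfrc to Cd69, at 1.49 ± 0.043 and 1.56 ± 0.046 (SD, n = 4), overlapped between groups.

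Tfrc, the receptor that brings transferrin-bound iron into the cell (ENSMUSG00000022797, chromosome 16, 32608920 to 32632794, plus strand), had the most counts of the set. The vehicle libraries 1 to 4 stood at 634, 643, 610 and 631 CPM. The dimethyl succinate libraries stood at 559, 620, 605 and 638 CPM. Dimethyl succinate replicate 1 was lowest and the other libraries of both groups mixed. The means were 629 ± 14.0 and 605 ± 33.6 CPM (SD, n = 4). On the log2 scale the fold change was -0.056 ± 0.063 (SE). Leaving out vehicle replicate 4 gave -0.054, and leaving out dimethyl succinate replicate 1 gave -0.017.

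Ly6a, the lipid-anchored Sca-1 antigen (ENSMUSG00000075602, chromosome 15, 74994877 to 74998031, minus strand), owed its spread in vehicle to 1 library. The vehicle libraries 1 to 4 stood at 423, 414, 413 and 345 CPM. The dimethyl succinate libraries stood at 402, 387, 372 and 380 CPM. Vehicle replicates 1 to 3 lay above every treated library and vehicle replicate 4 below every one. With all libraries the means were 399 ± 36.2 and 385 ± 12.9 CPM (SD, n = 4). The log2 fold change was -0.050 ± 0.072 (SE). Without vehicle replicate 4 the vehicle mean was 417 ± 5.49 CPM (SD, n = 3) and the log2 fold change -0.11 ± 0.045. The groups then did not overlap, as for 9.61% of tested genes with that library left out, 4.71% with the treated group lower.

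Cd24a, the lipid-anchored CD24 (ENSMUSG00000047139, chromosome 10, 43578284 to 43584265, plus strand), was the least abundant, with 130 to 207 counts per library. The vehicle libraries 1 to 4 stood at 13.1, 12.6, 12.9 and 12.2 CPM. The dimethyl succinate libraries stood at 8.88, 10.7, 11.6 and 13.2 CPM. The treated libraries held both the lowest and the highest value of the 8. The coefficient of variation was 3.11% in vehicle and 16.4% under dimethyl succinate, where counting alone gives 7.41% and 7.61%. The log2 fold change was -0.19 ± 0.124 (SE). It was -0.21 ± 0.123 with vehicle replicate 4 left out and -0.098 with dimethyl succinate replicate 1 left out. At this depth a difference of this size is of the order of the spread.

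Cd200, the ligand of the inhibitory receptor CD200R1 (ENSMUSG00000022661, chromosome 16, 45382135 to 45409053, minus strand), had near-equal group means. The vehicle libraries 1 to 4 stood at 181, 191.5, 190.1 and 214 CPM. The dimethyl succinate libraries stood at 173, 191, 197 and 223 CPM. In each group replicate 4 was highest and replicate 1 lowest. The means were 194 ± 14.2 and 196 ± 20.6 CPM (SD, n = 4). The log2 fold change was 0.014 ± 0.081 (SE), it was 0.065 when vehicle replicate 4 was left out and -0.052 when dimethyl succinate replicate 4 was, so it took both signs.

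**Figure D2:**
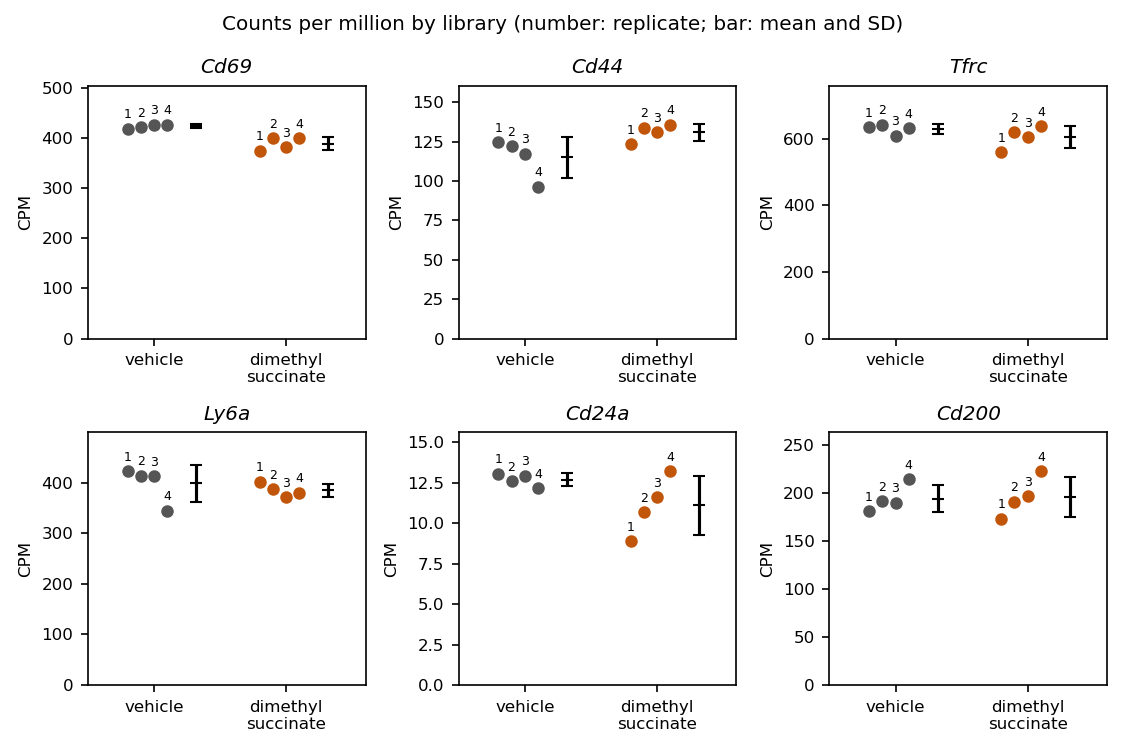
CPM of each transcript by library, with the replicate number above each point and the group mean and SD as a bar; each vertical axis starts at 0. Cd69 lies between 419 and 427 CPM in vehicle and between 374.5 and 400 under dimethyl succinate, while vehicle replicate 4 lies apart for Cd44 (96.3) and Ly6a (345).

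The members did not move as one block. Relative to vehicle, Cd69, Tfrc, Ly6a and Cd24a had log2 fold changes below 0 and Cd44 and Cd200 above 0, where 49.6% of all tested genes lay above 0. The authors' deposited table gave log2 fold changes of -0.13 for Cd69, 0.18 for Cd44, -0.061 for Tfrc, -0.055 for Ly6a, -0.20 for Cd24a and 0.0087 for Cd200. Dimethyl succinate replicate 1 was the lowest of the 8 libraries for 4 of the 6, namely Cd69, Tfrc, Cd24a and Cd200, and vehicle replicate 4 for the other two, Cd44 and Ly6a. Dimethyl succinate replicate 4 was the highest for 3, Cd44, Cd24a and Cd200. Across settings the sign of each log2 fold change but that of Cd200 stayed as it was, and Cd200 changed sign in 2 of 17 alternatives, on leaving out dimethyl succinate replicate 4 or vehicle replicate 1.

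**Figure D3:**
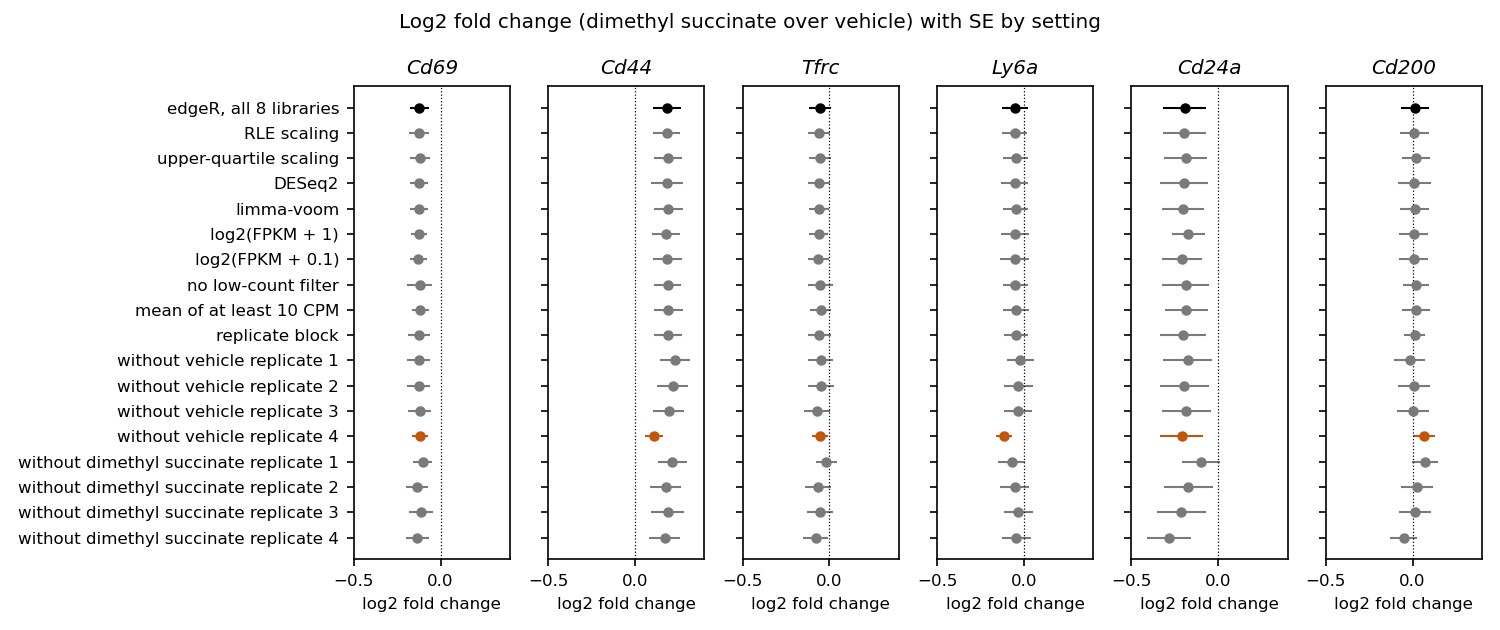
Log2 fold change (horizontal axis, dimethyl succinate over vehicle) with its SE for each transcript (columns) under each setting (rows); black marks all 8 libraries in edgeR and orange the fit without vehicle replicate 4. Cd69 stays between -0.14 and -0.10 when 1 library is left out, Cd44 runs from 0.11 to 0.23 and Cd24a from -0.28 to -0.098.

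The genes most like each member were taken as the pair with the highest Pearson correlation of log2 CPM over the 8 libraries, among 8914 other genes of at least 10 CPM. These are the best of many and share the libraries, so they are a description with no p. For Cd69 they were Fpgt (r = 0.986, Spearman's rho = 0.833) and Rbak (r = 0.968, rho = 0.976), with r of 0.992 and 0.961 without vehicle replicate 4. For Cd44 they were Stradb (r = 0.974, rho = 0.905) and Ggta1 (r = 0.974, rho = 0.929), and r was 0.868 and 0.881 without that library. For Tfrc they were Ccdc58 (r = 0.969, rho = 0.857) and D16Ertd472e (r = 0.964, rho = 0.976), and for Ly6a Armcx6 (r = 0.973, rho = 0.905) and Nt5c2 (r = 0.967, rho = 0.976). For Cd24a they were Pdcd10 (r = 0.971, rho = 0.905) and Ssr1 (r = 0.971, rho = 0.905), and for Cd200 Mpp6 (r = 0.967, rho = 0.929) and Rpf2 (r = 0.961, rho = 0.976). With the 2 libraries farthest from the member's median left out, r over these 12 genes ran from 0.802 for Ccdc58 to 0.975 for Armcx6. Without vehicle replicate 4, r was 0.999 for Ccdc58, 0.965 for D16Ertd472e, 0.944 for Armcx6, 0.926 for Nt5c2, 0.974 for Pdcd10, 0.976 for Ssr1, 0.959 for Mpp6 and 0.954 for Rpf2. No member was among the pair most like another member. The nearest was Tfrc to Cd24a, 67th in the order for Cd24a with r = 0.857.

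Other surface molecules of activated T cells had mostly small differences, more of them above 0 than below. Of 30 listed, 29 were tested and 0 reached an adjusted p of 0.05 in either direction. At the unadjusted threshold 3 were higher and 0 lower, beside 2.93% and 2.83% of all tested genes. Without vehicle replicate 4 these counts were 6 and 2, beside 4.43% and 4.12%. Of the 29, 21 lay above 0, or 20 without that library, where 49.6% of all tested genes did with all libraries. The median log2 fold change was 0.054, or 0.0495 without that library, against -0.0011 over all genes. The list mean had an SD between replicates of 0.044 on the log2 scale, and its lean was not tested. The 3 with the smallest p were Pdcd1, the gene of the checkpoint receptor PD-1, at 0.36 ± 0.086 (SE), Cd5, a damper of receptor signalling, at 0.21 ± 0.087, and Cd27, a costimulatory receptor, at 0.26 ± 0.110. Without vehicle replicate 4 the log2 fold changes of Cd5 and Cd27 were 0.13 and 0.16, and 1 of the 29 passed, Pdcd1, with an edgeR adjusted p of 0.00831, where 0.197% of all genes passed. Il2ra, the alpha chain of the interleukin-2 receptor (CD25), stood at 1959 ± 376 and 2106 ± 85.7 CPM (SD, n = 4), and its log2 fold change of 0.10 turned to -0.027 without that library. Icos and Cd28, a pair of costimulatory receptors, had log2 fold changes of -0.032 and -0.097, or -0.11 and -0.19 without it.

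Genes tied to CD69 and to exit from the lymphoid organ gave no call with all libraries. Of 16 listed, 13 were tested, and 8 lay above 0 with or without vehicle replicate 4. At that unadjusted threshold 0 were higher and 0 lower, or 0 higher and 1 lower without that library. Over all tested genes 49.6% lay above 0, 2.93% were higher and 2.83% lower. Without vehicle replicate 4, 7109 of 14232 genes lay above 0, 4.43% were higher and 4.12% lower. The median of the 13 was 0.049, and 0.0087 without vehicle replicate 4. S1pr1, the receptor that CD69 removes from the surface, stood at 31.8 ± 7.24 and 33.5 ± 1.91 CPM (SD, n = 4). Its log2 fold change was 0.077, and -0.074 without that library. Klf2, the transcription factor that drives S1pr1, stood at 25.6 ± 1.40 and 25.5 ± 4.35 CPM. Slc3a2 and Slc7a5, the chains of the CD98 amino acid transporter, had log2 fold changes of -0.031 and 0.020, or 0.00070 and -0.017 without it. The 3 with the smallest p were Sphk1, a sphingosine kinase, at 0.33 ± 0.227 (SE), Spns2, an exporter of sphingosine 1-phosphate, at 0.33 ± 0.233, and Myl12b, a myosin light chain, at -0.19 ± 0.161. They had 0.45, 0.29 and -0.15 without vehicle replicate 4. They stood at 2.47, 1.88 and 5.71 CPM in vehicle.

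Partners of CD44 and genes of iron handling also gave 0 calls at an adjusted p of 0.05. Among all tested genes 49.6% lay above 0, and 2.93% were higher and 2.83% lower at the unadjusted threshold. With vehicle replicate 4 left out, 7109 of 14232 genes lay above 0, 4.43% were higher and 4.12% lower. Of 22 genes listed around CD44, 16 were tested, 7 lay above 0, 1 was higher and 0 lower at the unadjusted threshold, and the median was -0.014. With vehicle replicate 4 left out, 17 were tested, 8 lay above 0, 2 were higher and 2 lower, and the median was -0.016. Ptpn22, a phosphatase that restrains receptor signalling, differed by 0.24 ± 0.078 on the log2 scale (SE), by 0.18 with vehicle replicate 4 left out. Ezr and Msn, which link CD44 to the actin cortex, had -0.051 ± 0.052 and -0.086 ± 0.064, or -0.047 and -0.054 without it. Srsf10, a splicing factor, had -0.14 ± 0.065, or -0.16 without it, and Spp1 (osteopontin, a ligand of CD44) was at 1.16 and 0.748 CPM. Of 20 iron genes, 15 were tested, 7 lay above 0, 1 was higher and 0 lower at the unadjusted threshold, and the median was -0.024. In the fit without vehicle replicate 4, 6 lay above 0, 1 was higher and 1 lower, and the median was -0.016. Slc39a14, a metal importer, had 0.15 ± 0.059 (SE), Pcbp1, an iron chaperone, 0.15 ± 0.10 and Ftl1 -0.16 ± 0.120. Slc39a14 had 0.14 and Pcbp1 0.048 without that library. Ftl1 and Fth1, the ferritin chains with the hairpins above, had log2 fold changes of -0.025 and -0.00020 without vehicle replicate 4, against -0.16 and -0.11 with it. Aco1 and Ireb2, the iron regulatory proteins, had 0.031 ± 0.067 and -0.069 ± 0.072, or 0.043 and -0.038 without it. Myc, a growth factor-induced transcription factor that drives Tfrc, had 0.049, or -0.049 without that library.

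The Ly6 family, the partners of CD24 and CD200, and interferon-inducible genes were examined for Ly6a, Cd24a and Cd200. Of 19 Ly6 family and related genes, 8 were tested, 5 lay above 0 and 0 reached an unadjusted p below 0.05. The median was 0.019. When vehicle replicate 4 was left out, 4 lay above 0, 0 were higher and 1 lower at that p, and the median was 0.0058. Thy1, the Thy-1 antigen of T cells, differed by 0.22 ± 0.127 on the log2 scale (SE), by 0.086 with vehicle replicate 4 left out. Plaur, the urokinase receptor, had -0.21 ± 0.133 and Ly6c2 0.36 ± 0.378, or -0.15 and 0.049 without it. Ly6c1 and Ly6e had -0.062 and 0.034, or -0.26 and -0.073 without that library. Of 15 partners of CD24 and CD200, 11 were tested, 4 lay above 0 and 0 reached that p, with a median of -0.015. With that library left out, 3 lay above 0, 0 were higher and 2 lower, and the median was -0.0495. Cd200r1, the receptor of CD200, stood at 12.5 ± 0.592 and 11.5 ± 0.409 CPM (SD, n = 4). For Hmgb1, a ligand that CD24 can hold, the log2 fold change was -0.12 ± 0.072 (SE), and for Selp, the gene of P-selectin, which binds CD24, -0.41 ± 0.274, or -0.17 and -0.57 without that library. Cd52, a lipid-anchored ligand, had 0.12, or -0.049 without vehicle replicate 4.

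Interferon-inducible genes lay mostly below 0. All 30 were tested and 6 lay above 0, where 49.6% of all tested genes did. At the unadjusted threshold 0 were higher and 1 was lower, beside 2.93% and 2.83% of all tested genes. An adjusted p of 0.05 was reached by 0. The median was -0.076, against -0.0011 over all genes. The list mean had an SD between replicates of 0.054 on the log2 scale. Without vehicle replicate 4 the median was -0.083 and 7 of 30 lay above 0, where 7109 of 14232 genes did. At that threshold 1 was then higher and 5 were lower, beside 4.43% and 4.12% of all tested genes. The lean of the list was not tested. Irf1, an interferon-induced transcription factor, was the 1 lower gene with all libraries, at 533 ± 16.9 and 461 ± 34.8 CPM (SD, n = 4). Its log2 fold change was -0.21 ± 0.068 (SE). Rsad2, an antiviral enzyme, had -0.51 ± 0.244 at about 2 CPM, and Irf7 0.25 ± 0.129. Irf1, Rsad2 and Irf7 had -0.20, -0.37 and 0.16 without that library.

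**Figure D4:**
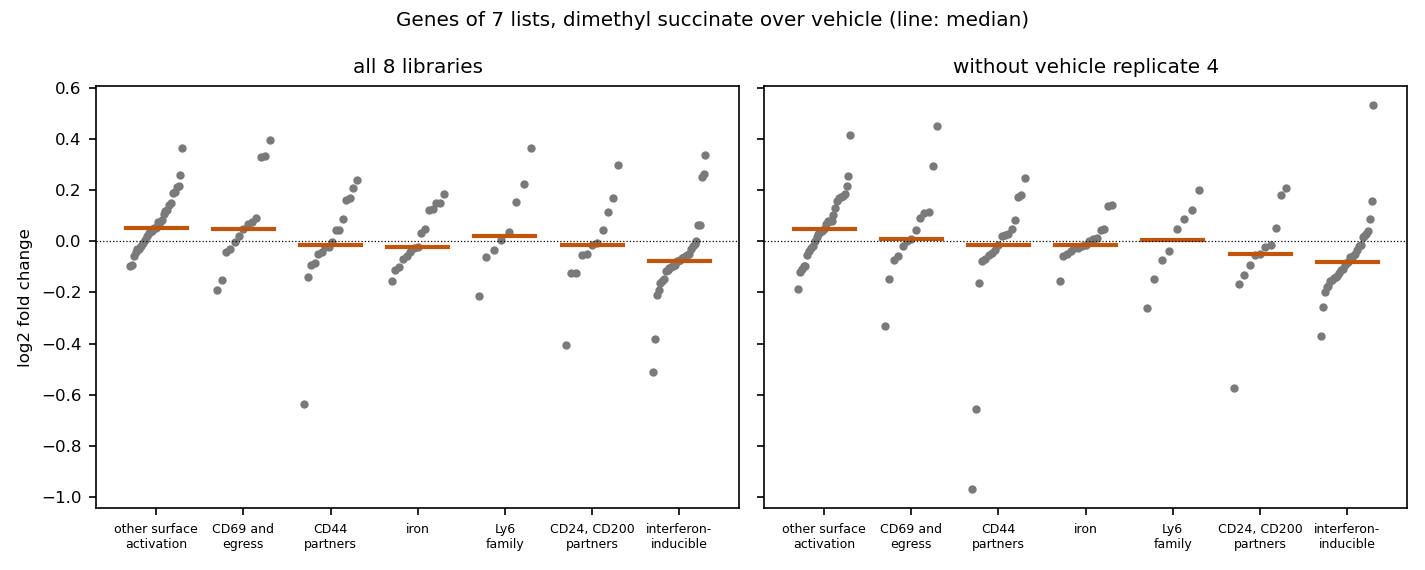
Log2 fold change (vertical axis, dimethyl succinate over vehicle) of each tested gene of 7 lists, 1 point per gene, with all 8 libraries (left) and without vehicle replicate 4 (right); the line marks the median. Other surface activation genes have a median of 0.054 and interferon-inducible genes of -0.076.

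Cells other than CD4+ T cells can carry these surface proteins, so their markers were read in the same libraries. Cd4 stood at 415 ± 65.5 and 471 ± 15.5 CPM, Cd3e at 175 ± 30.1 and 185 ± 12.5, and Cd8a at 0.868 ± 0.163 and 1.08 ± 0.214 (SD, n = 4). Cd8b1, the other listed marker of CD8 T cells, was higher than Cd8a, at 4.89 ± 0.124 and 5.68 ± 0.838 CPM. Of the other T cell markers, picked after their values were seen, Cd3d stood at 181 ± 19.97 and 167 ± 4.75 CPM and Cd28 at 449 ± 59.0 and 420.1 ± 27.1, both with the lower mean under dimethyl succinate, unlike Cd4 and Cd3e. Cd3d was 207 CPM in vehicle replicate 4, above the vehicle mean, although that library had the lowest sum of the T cell markers. Of 10 markers of B cells, which express Cd24a strongly, the summed level was 56.4 to 98.6 CPM in vehicle and 90.7 to 96.9 under dimethyl succinate, nearly all of it Ighm. Cd79b and Cd79a stood at 1.45 and 1.02 CPM in vehicle, and 1.69 and 0.934 under dimethyl succinate. For 10 markers of erythroid cells, which are rich in Tfrc, the summed level was 3.89 to 5.03 and 3.96 to 6.33 CPM, led by Car1 and Hba-a1. For 10 markers of monocytes and macrophages it was 1.65 to 2.50 and 2.24 to 3.62 CPM, led by Lyz2 and Cd14. For 8 neutrophil markers it was at most 0.734 CPM, with S100a9 and Retnlg at 0. For 8 dendritic cell markers it was 23.0 to 34.2 and 24.4 to 27.4 CPM, led by Batf3 and Zbtb46, with Siglech at 0. For 7 natural killer cell markers it was 12.1 to 15.2 and 9.78 to 13.9 CPM, led by Eomes, and for 8 markers of stroma and endothelium 28.7 to 40.4 and 34.8 to 39.3 CPM, led by Pecam1, with Col3a1 and Cdh5 at 0. Vehicle replicate 4 was the lowest library in B cell markers and the highest in dendritic cell markers. The part of these cells in the values of Cd44 and Ly6a in that library was not tested.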

How the data were processed

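Messenger RNA of 8 libraries, 4 per group, was analysed from 1 deposited table. The authors deposited raw counts per gene and library and FPKM values, per the file headers, and HISAT2 2.0.5 is named in the submitters' processing notes. The counting tool, build, annotation and strand setting are not given in the sources used here. Of 54495 genes matched to GENCODE M21 (GRCm38), 99.17% had the same start or end, so GRCm38 coordinates are assumed. The authors also deposited group means, a normalised signal of unstated unit, with a log2 fold change, p-values and adjusted p-values, per the file headers, and gene lengths in base pairs. Of these their log2 fold changes are quoted, and their p-values are not used.

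Counts were tested with edgeR 4.0.16 (R 4.3.3): filterByExpr kept 13981 genes, libraries were scaled by TMM, and a robust quasi-likelihood F test compared 4 against 4 libraries, two-sided, with Benjamini-Hochberg adjustment at 0.05. SEs come from the F statistic. CPM used TMM-scaled totals, and log2 CPM a prior count of 2. The test was checked on simulated counts. Alternatives were DESeq2 1.42.0, limma 3.58.1 (voom, and trend on log2(FPKM + 1) or log2(FPKM + 0.1)), other scaling and filters, the title number as a block, and omission of each library in turn. Total counts of 13407295 to 16688854 set the precision. The lowest chi-square per gene between replicates was 2.12, where counting alone gives about 1, so no replicate was treated as a repeat of another.

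The members, 7 pathway lists and marker lists were chosen with earlier results of these data known. Named genes are the members, up to 3 genes of smallest p per list, further list genes whatever their values (some are not reported here), 2 genes most like each member, and leading markers; Ly6i, Cd3d, Cd28 among the T cell markers, Cd79a and the markers at 0 were named after their values were seen. Hairpins and shared windows were read from GENCODE M21 transcripts.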

Additional observations from a re-analysis of the deposited data

Results flagged for a closer look

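Ly6a in vehicle replicate 4, at 345 CPM, was far from the other vehicle libraries, which lay between 413 and 423 CPM. The gap to the nearest of them on the log2 scale was 0.886 of the group's whole range, above Dixon's 95% critical value for 4 samples. Such a gap was looked for in 12 groups of 4 libraries, and chance alone gives about 1 in 20. The same library is low in mitochondrially encoded counts and in the sum of T cell markers, and their part in the Ly6a value was not tested.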

How the results depend on the processing

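The edgeR count of 0 genes below an adjusted p of 0.05 became 4 in DESeq2 and 6 with no low-count filter; for DESeq2 the cause was not tested, and without the filter 27185 genes were tested. It was 0 with RLE or upper-quartile scaling, limma-voom, log2(FPKM + 1), log2(FPKM + 0.1) and a mean of at least 10 CPM. Leaving out each library gave 0 to 28, and vehicle replicate 4 alone gave the 28, 18 higher and 10 lower; no member was among them. With the replicate number of the titles as a block 1 gene was called, and the log2 fold changes of the members were -0.12 (Cd69), 0.19 (Cd44), -0.057 (Tfrc), -0.046 (Ly6a), -0.20 (Cd24a) and 0.011 (Cd200). Same-numbered libraries had correlations of their deviations of -0.014, 0.011, 0.056 and 0.13, and 3 of 8 libraries correlated best with their own number, so the number is not read as a pairing. The log2 fold changes of the 6 members and the medians of the 7 lists moved by less than 1 SD between replicates in every alternative run. Leaving out 1 library gave -0.14 to -0.10 for Cd69, 0.11 to 0.23 for Cd44, -0.080 to -0.017 for Tfrc, -0.11 to -0.019 for Ly6a, -0.28 to -0.098 for Cd24a and -0.052 to 0.071 for Cd200. The list medians were recomputed without vehicle replicate 4 and under no other alternative. Depth limits Cd24a most, with 130 to 207 counts per library.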
